A study of Rattus norvegicus with 18 samples.

Results

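Transcripts of 6 genes that prepare and present peptides on class I molecules were followed in 9 cell populations from rat testis: Psmb8, Psmb9 and Psmb10, which encode the catalytic subunits of the immunoproteasome, Tap1 and Tap2, which together encode the peptide transporter, and B2m, the light chain of class I molecules. All probe sets that the array annotation assigns to these genes were taken, which gave 8 probe sets of 31042, and 6 genes of 13807 with a named probe set. Psmb8, Psmb9, Psmb10 and Tap2 had 1 probe set each, Tap1 and B2m had 2 each, and all 8 lay on array type A. The RNA came from 22-day-old rats and was hybridised to 2 types of 1-colour oligonucleotide array, A and B, with 1 array per population and type and so 18 arrays. Of these populations 7 were germ cells. They comprised a fraction that adhered to laminin (a protein of the basement membrane) and one that did not, cultures of 1, 5, 10 or 20 days on STO, a mouse fibroblast feeder line, and a culture of 20 days on MSC1, a feeder line of mouse Sertoli cells. Interstitial cells and somatic cells of the tubules were the 2 somatic populations. The labels mark both laminin fractions as cultured without giving a day. Not given in the sources used here are the strain, the number of animals pooled, whether the adherent cells went on to the feeders, and how germ cells were freed of the mouse feeder cells. There were no replicates, so a fold between 2 populations compares single libraries, without an SD or a p-value.

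The proteasome cuts proteins into peptides. After exposure of a cell to interferon, the constitutive catalytic subunits encoded by Psmb5, Psmb6 and Psmb7 are replaced in newly built proteasomes by those of Psmb8, Psmb9 and Psmb10, which change the cutting preference towards peptides that class I molecules can hold. The peptides are pumped into the endoplasmic reticulum by the Tap1 and Tap2 dimer and loaded onto a class I heavy chain paired with beta 2 microglobulin. Germ cells are known for low class I levels, and the seminiferous tubule is regarded as a site shielded from immune attack.

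In the RefSeq annotation of the GRCr8 assembly, Tap2, Psmb8, Tap1 and Psmb9 follow each other in this order on chromosome 20, in the class II region of the rat major histocompatibility complex. Psmb10 is on chromosome 19 and B2m on chromosome 3. All 6 genes matched by symbol to a RefSeq promoter window of 300 bases, from 250 before to 50 after the annotated start. These windows are shown because the members are classic targets of interferon. The core of the interferon-stimulated response element (ISRE), searched on both strands as GAAA, any 2 bases and GAAA, occurred in 5 of the 6 windows, and the capitals below mark it. A match on the other strand appears as TTTC, 2 bases and TTTC.

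Psmb8, chr20:4657026-4657065, minus strand: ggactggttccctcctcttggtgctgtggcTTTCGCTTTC
Psmb10, chr19:50743293-50743395, minus strand: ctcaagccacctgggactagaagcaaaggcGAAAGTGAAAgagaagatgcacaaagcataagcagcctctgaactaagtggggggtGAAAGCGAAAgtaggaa
Tap1, chr20:4668625-4668694, minus strand: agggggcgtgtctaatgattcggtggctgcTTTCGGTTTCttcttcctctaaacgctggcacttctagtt
Tap2, chr20:4652298-4652367, minus strand: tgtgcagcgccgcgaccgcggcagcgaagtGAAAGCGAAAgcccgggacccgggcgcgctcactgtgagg
B2m, chr3:129549150-129549219, plus strand: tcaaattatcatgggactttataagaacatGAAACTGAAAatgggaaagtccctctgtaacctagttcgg
Psmb9, chr20:4668882-4668951, plus strand, no match in the window: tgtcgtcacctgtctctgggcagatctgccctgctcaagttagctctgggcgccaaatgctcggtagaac

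Positions count from the start that each window uses, which lies 18, 48 and 94 bases inside the longest annotated gene span for Psmb8, Psmb9 and B2m and at its 5′ edge for the other members. The core lay across that start in Psmb8, at bases -4 to 6, and so within the gene span. In Psmb10 it occurred at -73 to -64 and again at -17 to -8, in Tap2 at -41 to -32, in Tap1 at -121 to -112 and in B2m at -150 to -141. Among all 33469 RefSeq promoter windows of this length 3.92% held the core. None of the 3 windows of Psmb5, Psmb6 and Psmb7 held it, and 12 of 19 windows of a list of interferon-induced genes, which includes Psmb8 and Psmb9, did. The interferon-gamma-activated site (GAS), searched as TTCNNNGAA, which reads the same on both strands, occurred in the Psmb8 window alone, against 8.87% of all windows. The NF-kB motif occurred in the Tap1 and B2m windows, against 7.51% of all windows, and no match of one motif overlapped a match of another. Tap1 and Psmb9 are transcribed away from each other, and their windows share 44 bases, with no match in the shared stretch. The gene spans of Tap1 and Psmb9 are 408 bases apart, and the ISRE core of Tap1 lies between them, outside the Psmb9 window. A match describes the letters of a window only.

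**Figure D1:**
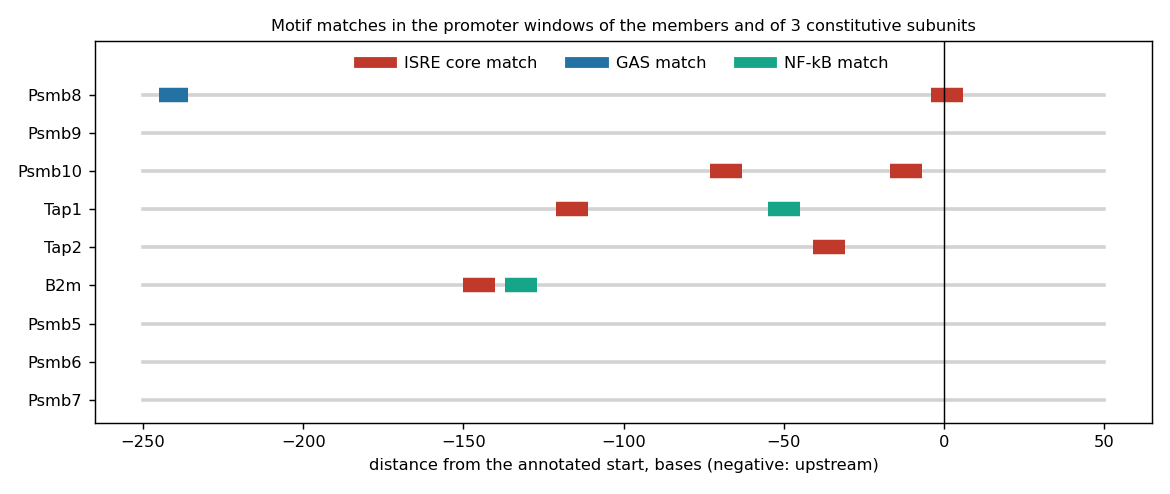
Positions of motif matches (coloured blocks) along the promoter windows of the 6 members and of Psmb5, Psmb6 and Psmb7, in bases from the annotated start. ISRE core matches lie in 5 member windows, between -150 and 6, and in none of the windows of Psmb5, Psmb6 and Psmb7.

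Signals are the authors' intensities on a linear scale, which they had brought to an average of 250 on each array. A signal under 50 was treated as not above background and raised to that floor before a fold was taken, so that a fold against such a signal is a lower bound, written as at least that many fold. A gene was called where the brighter population read at least 250 and the fold was at least 3. The 100 probe sets present on both array types gave a mean standard deviation of 0.25 on the log2 scale per array type, so that 2 standard deviations corresponded to 1.405-fold, for arrays only and not for animals, cultures or amplification. The standard deviation differed by pair, at 0.1975 for STO day 20 over day 1 and 0.2772 for STO day 1 over binding cells. Whether it is larger for dim probe sets was not tested. In these bulk samples fewer cells of a type and less RNA per cell cannot be told apart.

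The labels were checked against marker lists. The summed signal of 9 germ cell markers was 745 and 1047 in the tubular and interstitial libraries and 8519 to 32445 in the 7 germ cell libraries. That of 13 Sertoli markers was 20814 in the tubular library and 1896 to 3639 in germ cell libraries, but 13730.0 in the interstitial library. Single markers varied: Clu read 94.7 in interstitial and 983 in tubular cells, and Wt1 242 and 1273. Other markers differed by less than 1.405-fold, namely Ctsl (3769 and 4123), Gja1 (2528 and 3001), Vnn1 (996 and 1101) and Aldh1a1 (3221 and 2507). Whether the somatic fractions shared cell types was not tested. The 10 fibroblast and matrix markers summed to 28025 in the interstitial library, 1274 and 1315 in the binding and non-binding cells, and 5880 and 5882 on STO and MSC1 at day 20. The 21 macrophage and leukocyte markers summed to 7028 in the interstitial library, 1761 in the tubular library and 1023 to 2756 in the germ cell libraries, highest on MSC1. The common leukocyte antigen Ptprc read 126 in the interstitial library and under the floor in the other 8. The 3' to 5' signal ratio of Gapdh on type A, a measure of RNA degradation or shortening, was 14.7 to 29.7 on feeders and 5.63 to 11.2 elsewhere.

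The 3 immunoproteasome subunits shared a pattern. They were high in tubular somatic cells, low in non-binding cells, lowest on STO at day 20, and higher again on MSC1 at day 20. Psmb9 and Psmb10 were also high in laminin-binding cells, where Psmb8 stood in the middle of its order. Psmb8 and Psmb9 were high in interstitial cells too, where Psmb10 stood in the middle of its order.

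Psmb8, the subunit that replaces that of Psmb5, read 2421 in interstitial cells, 3397 in tubular somatic cells, 914 in laminin-binding cells and 245 in non-binding cells. On STO it read 843, 1450.1, 408 and 85.3 on days 1, 5, 10 and 20, and on MSC1 it read 1381. Both somatic signals lay above all 7 germ cell signals, by 1.67-fold between the nearest libraries. Tubular and interstitial cells, STO day 5 and MSC1, and binding cells and STO day 1 were neighbours in the order that differed by no more than 1.405-fold.

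Psmb9, the counterpart of the Psmb6 product, read 821 in interstitial cells, 1609 in tubular cells, 695 in binding cells and 86.9 in non-binding cells. On STO its signal was 237, 279, 96.0 and 36.9 on days 1, 5, 10 and 20, and on MSC1 it was 439. The somatic signals again lay above all germ cell signals, although the interstitial library was only 1.18-fold above binding cells, which is within the array error. STO day 10 and non-binding cells did not differ beyond that error either, at 1.10-fold.

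Psmb10, the counterpart of the Psmb7 product, read 547 in interstitial cells, 1657 in tubular cells, 1299 in binding cells and 235 in non-binding cells. It read 594, 373, 249.6 and 51.8 on STO days 1, 5, 10 and 20, and 697 on MSC1. Here the groups overlapped, since binding cells, STO day 1 and MSC1 read above the interstitial library, STO day 1 by no more than the array error. Tubular and binding cells, at 1.27-fold, and STO day 10 and non-binding cells, at 1.06-fold, were neighbours that did not differ beyond that error. Psmb10 was the only gene of the 6, read from its brightest probe set, whose somatic and germ cell signals overlapped.

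The transporter genes were dim in germ cells. The brighter Tap1 probe set read 175 in interstitial and 595 in tubular cells and between 18.2 and 75.8 in germ cells, where 4 of 7 signals were under the floor. The other Tap1 probe set did not show this separation: it read 36.8 and 53.0 in the somatic fractions and 4.3 to 73.5 in germ cells. Tap2 read 117 in interstitial cells, 116 in tubular cells and 57.6 in binding cells, and the other 6 germ cell signals lay between 6.4 and 30.4, under the floor. At these signals a difference in Tap1 or Tap2 among germ cells was not detectable.

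B2m was bright in the soma and separated the groups most. Its brighter probe set read 3816 in interstitial and 6154 in tubular cells, 1116 in binding cells and 402 in non-binding cells, and 398, 366, 312 and 294 on STO days 1, 5, 10 and 20. On MSC1 it read 352. The somatic and the binding libraries differed from all others beyond the array error, while non-binding cells and all 5 feeder libraries formed a row in which no neighbours differed by more than 1.13-fold. The other B2m probe set also placed the somatic libraries first (3107 and 2645) and binding cells next (882), but it set non-binding cells (537) above all feeder libraries, which read 24.6 to 136. The probe sets of B2m thus disagreed on whether non-binding cells differed from cells on feeders.

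**Figure D2:**
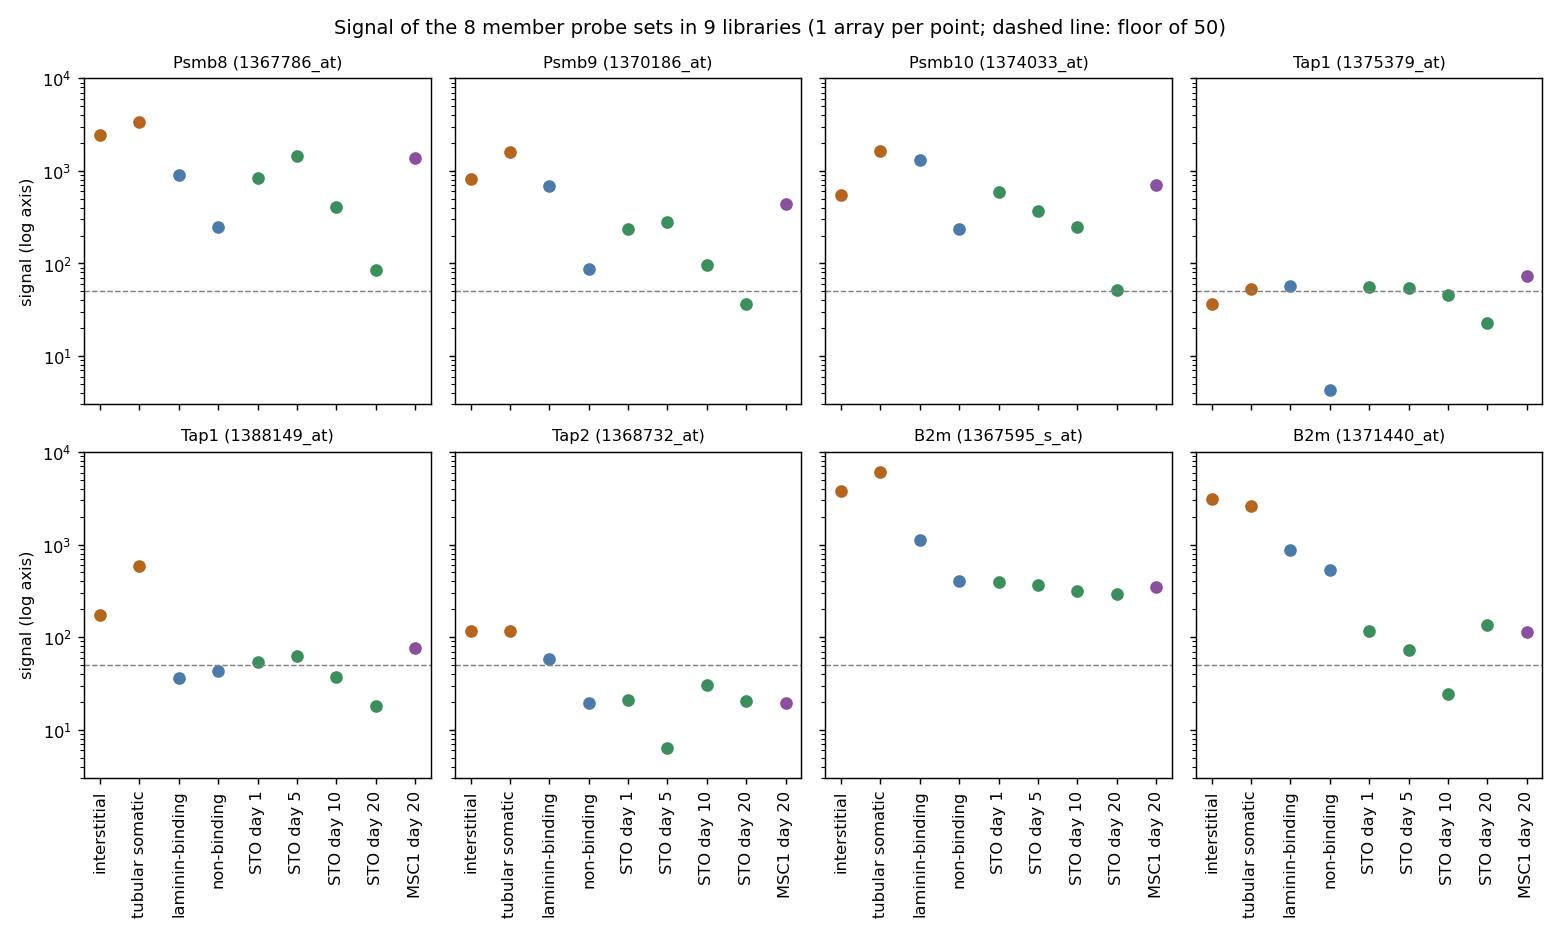
Signal of each of the 8 member probe sets (log axis, 1 array per point) in the 9 libraries, with the floor of 50 as a dashed line; brown marks somatic, blue laminin-separated, green STO and purple MSC1 libraries. Psmb8, Psmb9 and Psmb10 dip in non-binding cells and on STO day 20, whereas B2m is high in the somatic libraries and level on feeders from 294 to 398 on its brighter probe set.

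Over the 9 libraries the log2 signals of Psmb8 and Psmb9 correlated with r = 0.93, those of Psmb9 and Psmb10 with r = 0.91, and those of Tap2 and B2m with r = 0.97, while that of Psmb10 with Tap2 was 0.49. Tap2 was under the floor in 6 of the 9 libraries, so its correlations rest on the somatic and binding libraries. These values describe 9 libraries that share their array type, with the somatic and germ cells apart. Within the 7 germ cell libraries Psmb9 and Psmb10 had r = 0.93, and Psmb8 and B2m had r = 0.34.

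The first comparison sets both somatic fractions against all germ cells. B2m was the only member called, with the lower somatic signal 3.42-fold above the highest germ cell signal, where 1.32% of all genes were called higher and 0.717% lower. Its second probe set, at 2.997-fold, fell just short of a call. With no fold threshold, 5 members (all but Psmb10) had both somatic signals above all 7 germ cell signals, against 10.4% of all genes. Among these Psmb9 was apart by 1.18-fold only, within the array error, and the second Tap1 probe set overlapped. Of 20 other interferon-induced genes 2 were called higher in the soma, the antiviral gene Ifit2 (17.1-fold) and the GTPase gene Irgm (3.42-fold), and none lower. No gene of the class I heavy chain list (18 genes) or of the class II list (10 genes) was called in this comparison.

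Tubular somatic cells had more Psmb10 and Tap1 than interstitial cells, at 3.03-fold and 3.40-fold, where 3.12% of all genes were called higher and 3.85% lower. The fold was 1.96 for Psmb9, 1.61 for B2m, 1.403 for Psmb8 and 1.01 for Tap2, none of them called. The second Tap1 probe set differed by at least 1.06-fold only, and Psmb10 at 3.03-fold lay just past the threshold and was not called after quantile normalization of the arrays. The median log2 fold of the 6 members was 0.83, against 0.003 for all 10713 genes above the floor on a side. Other interferon-induced genes differed by more: 11 of 20 were called higher and none lower, among them Isg15, a ubiquitin-like protein (40.7-fold), the guanylate-binding protein gene Gbp4 (47.1-fold) and the antiviral Oas1a (21.8-fold). The transcription factor genes Irf7 (11.6-fold), Stat2 (6.28-fold) and Irf9 (3.29-fold), which carry the interferon signal, were called higher too, 3 of 19 genes in their list. None of that list was called lower, but the median log2 fold of its 17 genes above the floor on a side was -0.381. The class I heavy chain gene RT1-S3 was 4.39-fold higher, 1 of 18. The macrophage list ran the other way, with 7 of 21 genes called lower in tubular cells and 1 higher. Sertoli markers were called higher for 4 of 13 genes. The part of these cell types in the member folds was not tested.

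Laminin-binding cells differed from tubular somatic cells mainly in B2m, Tap1 and Psmb8. These 3 members were called lower in binding cells, B2m by 5.51-fold, Psmb8 by 3.71-fold and Tap1 by at least 11.9-fold, where 6.61% of all genes were called lower and 6.69% higher. Psmb9 (2.31-fold), Tap2 (2.01-fold) and Psmb10 (1.28-fold) also read lower without a call. The second Tap1 probe set read 1.08-fold higher in binding cells, and the second B2m probe set, at 2.997-fold lower, fell just short of a call. The median log2 fold of the members was -1.55, against 0.12 for all genes. Of 20 other interferon-induced genes 15 were called lower in binding cells, including Ifit2 (32.2-fold), Mx1 (29.5-fold) and Isg15 (9.32-fold). The class I genes RT1-T24-3 (8.64-fold), RT1-S3 (6.89-fold) and RT1-T24-4 (3.37-fold) were lower as well. Many RT1 class I heavy chain genes are alike in sequence, and a probe set, above all one named with _x_at, may read several of them, so these names are uncertain. Sertoli markers were called lower for 10 of 13 genes in this pair, and their part in the member folds was not tested.

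Laminin-binding cells carried more of all 3 immunoproteasome subunits than non-binding cells. Psmb9 was 8.002-fold, Psmb10 5.53-fold and Psmb8 3.73-fold higher, 3 of the 6 members, where 4.53% of all genes were called higher and 5.16% lower. B2m was 2.78-fold higher on one probe set and 1.64-fold on the other, and was not called. Tap2 was at least 1.15-fold higher. Tap1 read under the floor in both populations on its brighter probe set, and the other probe set read 57.5 and 4.3, at least 1.15-fold higher in binding cells. The median log2 fold of the 5 members above the floor on a side was 1.90, against 0.21 for all 10977 such genes. The shift of all genes was 0.11 after scaling to the 75th percentile and 0.06 after quantile normalization, and all 3 calls were kept under both.

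Of the constitutive subunits Psmb5 was 2.64-fold higher in binding cells, and 1.41-fold and at least 2.96-fold on its probe sets on type B, and Psmb7 was 1.41-fold higher, without a call. No probe set was named for Psmb6. Psme2, a subunit of the PA28 activator that caps the immunoproteasome, was 3.35-fold higher, whereas Psme4, a different activator known for its role in spermatogenesis, was 3.26-fold lower, out of 4 activator and assembly genes. In the loading list (5 genes) the trimming peptidase Erap1 was 3.18-fold higher and the chaperone calnexin, Canx, 8.58-fold lower. The other Canx probe sets read 5.25-fold lower and 1.37-fold higher, so the direction of Canx depended on the probe set. RT1-M3-1 (7.54-fold) and RT1-T24-4 (4.03-fold) were the called class I heavy chain genes, 2 of 18. The largest fold in the pathway lists was that of Stat2 at 11.1-fold, and 5.43-fold on its other probe set, 1 of 19 genes for interferon receptors and transcription factors. Of the 20 other interferon-induced genes Usp18, an inhibitor of interferon signalling, alone was called, at 3.40-fold higher.

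Markers of germ cell stages and of somatic cells moved with this comparison. Ret, the receptor of GDNF on undifferentiated spermatogonia, read 707 in binding and 87.3 in non-binding cells, and the meiotic gene Sycp3 read 1545 and 4181. The summed macrophage signal was 1195 and 1093 and the summed Sertoli signal 3403 and 3023, with 0 of 21 macrophage genes and 1 of 13 Sertoli genes called higher. That gene was Cldn11, a tight junction component, at 637 and 157. Of the other Sertoli genes Dhh read 466 and 189, Inha 158 and 57.7 and Wt1 155 and 67.8, while Ctsl ran the other way at 863 and 1489.8. The median log2 fold was 0.79 for 11 Sertoli, 0.74 for 9 fibroblast and 1.13 for 2 peritubular myoid genes above the floor on a side, against 0.21 for all genes. Ptprc was under the floor in both libraries. The part of germ cell stage and of somatic cells in the member folds was not tested.

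**Figure D3:**
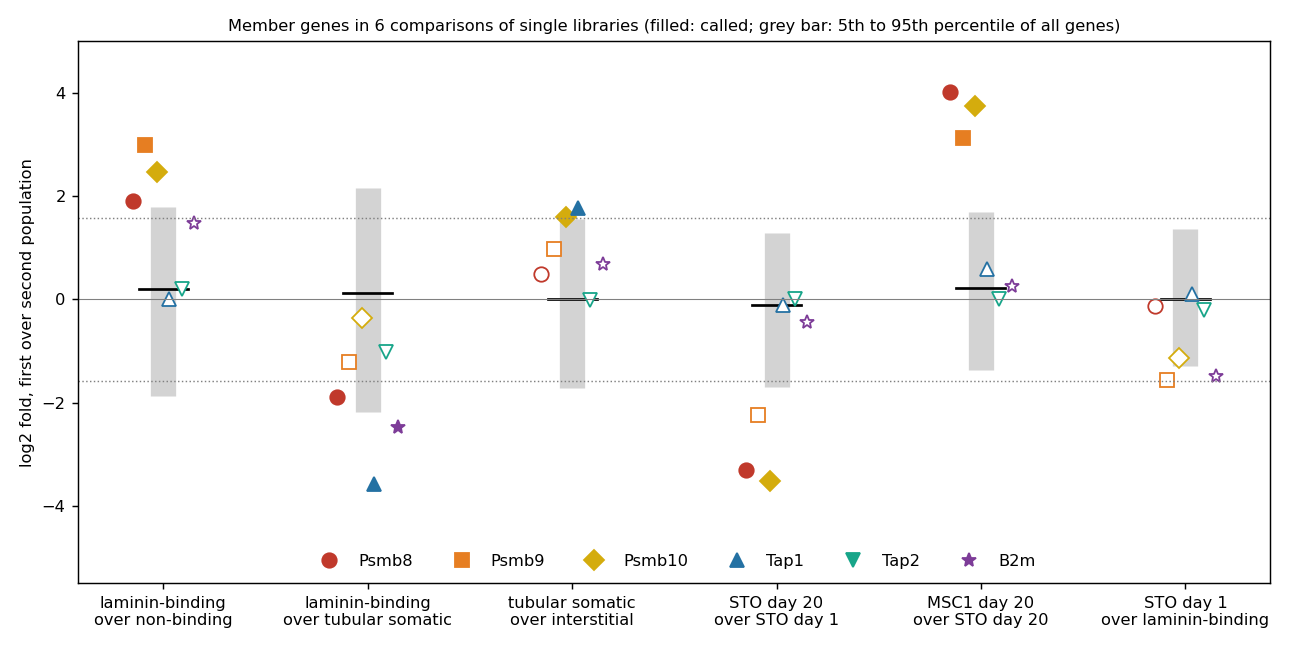
Log2 fold of each member gene (brightest probe set) in 6 comparisons of single libraries; filled symbols are called, grey bars span the 5th to 95th percentile of all genes, short black lines give the median of all genes, and dotted lines mark 3-fold. Psmb8, Psmb9 and Psmb10 lie above the grey bar for binding over non-binding cells and for MSC1 over STO day 20, while B2m lies inside it in both.

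The step from binding cells to cells after a day on STO left the members without a call. Psmb9 was 2.93-fold, B2m 2.80-fold and Psmb10 2.19-fold lower on STO day 1, and Psmb8 was 1.08-fold lower, where 1.72% of all genes were called higher and 1.57% lower. The second B2m probe set was 7.52-fold lower, past the threshold. Of the 20 other interferon-induced genes 5 were called lower, among them Bst2 (5.14-fold), Rsad2 (5.72-fold) and Isg15 (4.57-fold), and Irf7 was 11.0-fold lower. Whether the binding cells were the source of the STO cultures is unknown, and the Gapdh ratio was 7.07 in binding cells and 20.7 on STO day 1, so this pair also differed in RNA quality, whose part was not tested.

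During culture on STO Psmb8 and Psmb10 were called lower at day 20 than at day 1, and Psmb9 and B2m were not. Psmb10 was 11.5-fold and Psmb8 9.88-fold lower, 2 of 6 members, where 3.54% of all genes were called lower and 2.02% higher. Psmb9 was at least 4.74-fold lower but missed a call because its day 1 signal of 237 was below the minimum of 250. B2m was 1.35-fold lower, and 1.16-fold higher on its second probe set. The median log2 fold of the 5 members above the floor on a side was -2.25, against -0.11 for all genes.

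The course over the days was not even. From day 1 to day 5 Psmb8 read 1.72-fold higher, Psmb9 1.17-fold higher and Psmb10 1.59-fold lower. From day 5 to day 10 they were 3.56-fold, 2.90-fold and 1.49-fold lower, and from day 10 to day 20 they were 4.78-fold, at least 1.92-fold and 4.82-fold lower. Psmb8 was highest at day 5, Psmb9 did not differ between days 1 and 5 beyond the array error, and of the 3 subunits only Psmb10 moved one way at every step.

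A slope of log2 signal on log2 culture day was fitted with limma over the 4 STO libraries, with Benjamini-Hochberg adjustment across 16066 probe sets. The slope was -0.69 (SE 0.25, adjusted p = 0.471) for Psmb8, -0.51 (SE 0.175, adjusted p = 0.457) for Psmb9, -0.72 (SE 0.18, adjusted p = 0.412) for Psmb10 and -0.10 (SE 0.11, adjusted p = 0.803) for B2m, and none passed the threshold of 0.05. The limma fit called 0% of probe sets as rising and 0% as falling, whereas 592 and 908 had an unadjusted p under 0.05. On a linear scale of days the limma adjusted p was 0.00391 for Psmb8, 0.0151 for Psmb9, 0.00155 for Psmb10 and 0.576 for B2m, among 1425 probe sets called in all. Without STO day 1 the same 3 members passed on the log2 scale, among 1733 called. Without STO day 20 the slopes were -0.20 for Psmb8, -0.31 for Psmb9 and -0.36 for Psmb10, and none of them was called, among 28 called in all. Whether the decline was called thus depended on the time scale and on the day 1 library, and the slopes were smaller in size without day 20.

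Several genes of the pathway lists were called lower over the same days. Both PA28 activator genes were lower at day 20, Psme1 by 6.08-fold and Psme2 by 3.54-fold, although a dimmer Psme1 probe set on type B was 1.13-fold lower, and the constitutive Psmb7 was 4.11-fold lower, while Psmb5 was 1.94-fold lower without a call. The interferon-regulated transcription factor gene Irf1 was 7.97-fold lower, and Stat2 3.02-fold, or 1.73-fold on its other probe set. Erap1 was 3.95-fold lower. Of the 20 other interferon-induced genes 4 were called lower, namely Igtp (at least 8.71-fold), Usp18 (4.13-fold), Isg15 (3.82-fold) and Ube2l6 (3.44-fold), and none higher. RT1-T24-4 was 5.70-fold and RT1-M3-1 3.14-fold lower among 18 class I genes. Against this direction ran Canx, 6.68-fold higher on its brightest probe set and 1.46-fold and 1.53-fold higher on the others, and Ifi30, a thiol reductase of the class II pathway, 14.02-fold higher.

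Other values moved with day 20 as well. Fibroblast and matrix markers were called higher for 4 of 10 genes, with summed signals of 2680 at day 1 and 5880 at day 20. Also called higher were 2 of 8 Leydig, 1 of 13 Sertoli and 1 of 21 macrophage genes, with 0 lower. The Leydig sum was 217 at day 1 and 817 at day 20. Ret read 1730 at day 1 and 48.6 at day 20, and Sycp3 722 and 2434. The Gapdh ratio was 20.7 at day 1 and 14.7 at day 20, the lowest on feeders. The part of each in the member folds was not tested.

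**Figure D4:**
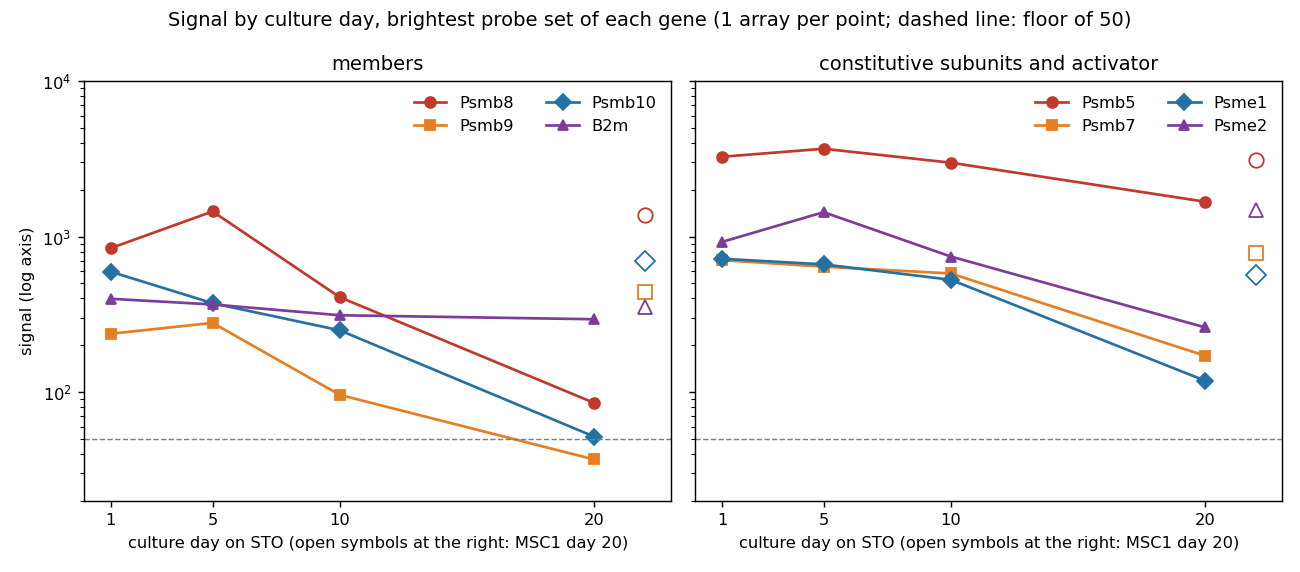
Signal (log axis, 1 array per point) against culture day on STO for the members Psmb8, Psmb9, Psmb10 and B2m (left) and for Psmb5, Psmb7, Psme1 and Psme2 (right); open symbols at the right edge are MSC1 at day 20 and the dashed line is the floor of 50. Psmb8 peaks at day 5 and ends at 85.3, and B2m, on its brighter probe set, stays between 294 and 398. The MSC1 symbols of Psmb8, Psmb9 and Psmb10 lie well above the STO day 20 points.

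Cells kept for 20 days on MSC1 carried far more of the immunoproteasome transcripts than cells kept as long on STO. Psmb8 was 16.2-fold, Psmb10 13.5-fold and Psmb9 at least 8.77-fold higher, 3 of 6 members, where 3.38% of all genes were called higher and 2.57% lower. B2m was 1.20-fold higher, within the array error, and 1.18-fold lower on its second probe set. Tap1 was at least 1.52-fold higher, and Tap2 was under the floor on both feeders. The median log2 fold of the 5 members above the floor on a side was 3.13, against 0.23 for all 11237 such genes. That shift of all genes was 0.10 after 75th percentile scaling and 0.04 after quantile normalization, and the same 3 members were called under both.

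The differences were smaller against the start of the STO course. Against STO day 1 Psmb8 was 1.64-fold, Psmb9 1.85-fold and Psmb10 1.17-fold higher on MSC1, and B2m 1.13-fold lower. STO day 20 lay below even the non-binding cells, by 2.87-fold for Psmb8, at least 1.74-fold for Psmb9 and 4.53-fold for Psmb10.

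Several proteasome genes outside the members were called higher on MSC1. Psme2 (5.68-fold), Psme1 (4.78-fold, or 1.64-fold on its probe set on type B, without a call) and the assembly factor gene Pomp (3.29-fold) were 3 of 4 genes in their list. The fourth, Psme4, read 453 on MSC1 and 975 on STO day 20, lower without a call. Psmb7 (4.54-fold) was called too, whereas Psmb5 was 1.85-fold higher without a call. Irf1 (6.17-fold) and Irf7 (3.18-fold) were the called transcription factor genes, 2 of 19. Usp18 (3.52-fold) was the only one of the 20 other interferon-induced genes to be called, and RT1-T24-4 (5.21-fold) the only one of 18 class I heavy chain genes. Canx was 4.85-fold lower on its brightest probe set, and 2.73-fold and 1.68-fold lower on the others, short of the threshold.

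Macrophage markers summed to 2756 on MSC1 and 1535 on STO at day 20. In both libraries 1 gene of that list read at least 250, the lysozyme gene Lyz2 at 1103 and 438, and 0 of 21 genes were called in the comparison. Ptprc was under the floor in both. The summed fibroblast signal was nearly equal, at 5882 and 5880, but single genes of that list went both ways. Sparc read 406 on MSC1 and 112 on STO, the 1 of 10 genes called higher. Pdgfra read 106 and 300 and Dcn 39.6 and 126, lower without a call, and the median log2 fold over 9 fibroblast genes was -0.399. The Sertoli sum was 3639 and 2628, with 1 of 13 Sertoli genes called higher, Cldn11 at 616 and 55.6. Over 11 Sertoli genes the median log2 fold was 0.84, against 0.23 for all genes. Over 6 peritubular myoid genes it was 1.16, with 0 of 7 called, and 2 of 8 Leydig genes were called lower. Ret read 1145 on MSC1 and 48.6 on STO, and Sycp3 926 and 2434, while the Gapdh ratio was 27.4 and 14.7. The part of germ cell stage, of somatic cells, of mouse feeder RNA and of RNA quality in the member folds was not tested.

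**Figure D5:**
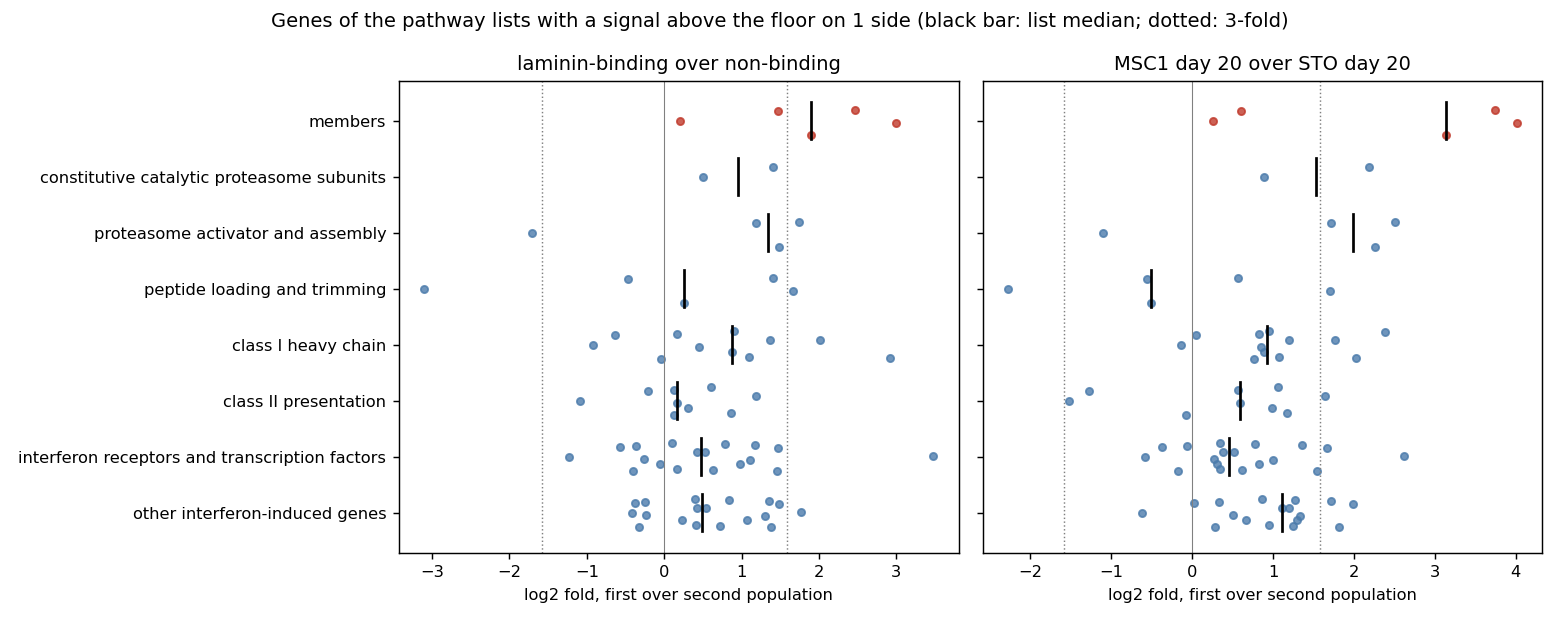
Log2 fold of the genes in each pathway list with a signal above the floor on a side, for laminin-binding over non-binding cells (left) and MSC1 over STO at day 20 (right); red points are the members, black bars list medians and dotted lines 3-fold. The member medians lie at 1.90 and 3.13, and 5 members have a point in each panel because a gene below the floor on both sides is not drawn.

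Within the germ cell libraries the mean profile of Psmb8, Psmb9 and Psmb10 was set beside other genes, chosen after their values were seen. Over 7 libraries it correlated with Ret at r = 0.90 and with Sycp3 at r = -0.48. With Psme2 r was 0.94, with Psme1 0.90, with Psmb7 0.90 and with Psmb5 0.895. The profile of Tap1, Tap2 and B2m had r = 0.47 with Ret and 0.04 with Sycp3. Tap1 and Tap2 lay near or under the floor in these libraries, so that profile rests mostly on B2m. These are descriptions of 7 single libraries that share array type and scaling.

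Log2 signals of 8076 probe sets were correlated (Pearson) over the 9 libraries with the mean profile of all 6 members. The genes most like this profile were Fbxw17 (r = 0.975), Mmgt2, Atp2b1, Nfatc1, Nacc2, Zc3h7b, Nmi, Inpp1, Rtp4 and Pmvk (r = 0.959). In 9 of these 10 the tubular library was the highest, the exception being Inpp1. Without the tubular library the correlation of these genes was 0.929 to 0.962.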

How the data were processed

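The files hold linear intensities, 1 for each probe set, deposited by the authors after scaling to an average of 250, per the labels. Scale factors ran from 0.391 to 1.512 for type A and from 1.047 to 4.009 for type B. The labels give 50 ng of total RNA, amplified in 2 rounds, and the number of arrays limits the precision. Detection calls were not used here. Not given in the sources used here are the software and the treatment of background. Left out were 57 control probe sets per type, and 100 shared ones were counted once. Probe sets were named only where the platform annotation gave 1 gene (20253 probe sets), with symbols updated by gene number through RefSeq. A gene's value is that of its probe set with the highest mean log2 signal, with type A preferred. The members and lists were chosen with earlier results of these data known. The named genes are the members, list genes called in a comparison, Psmb5 and Psmb7, and the 10 with the most similar profile. Named probe sets were candidates for the latter with a signal of at least 250 in a library and a range of at least 3-fold.

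The STO slope was fitted with limma 3.58.1 (R 4.3.3, lmFit and eBayes with a variance trend) on log2 signals of probe sets averaging at least 100, with 2 residual degrees of freedom, so its spread is departure from a line and not between cultures. On simulated data with a standard deviation of 0.25 it recovered 100% of 100 slopes of 0.5 and of 100 slopes of 1, among 15763 probe sets. It also called 7 probe sets that had no slope. That standard deviation was set and not taken from these libraries, where slopes of -0.51 to -0.72 for Psmb8, Psmb9 and Psmb10 were not called. The recovery therefore does not give the power of the fit on the real data. Alternatives were a floor of 25 or 100, other scalings, a fold of 2, a bright side of 100, the mean over probe sets, linear days, other filters, no variance trend, and leaving out each STO day. Other work used Python 3.11.15, numpy 2.4.6 and pandas 2.3.3.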

Additional observations from a re-analysis of the deposited data

How the results depend on the processing

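The counts of member genes called kept within 1.5 times of their value under the alternatives, apart from 3 results. For members lower on STO day 1 than in binding cells, 0 as reported, scaling to the 75th percentile gave 2 (Psmb9 and B2m), quantile normalization 1 (Psmb9), a fold threshold of 2 gave 3 (Psmb9, Psmb10 and B2m) and averaging a gene's probe sets 1 (B2m). For members higher in tubular than in interstitial cells, 2 as reported, quantile normalization left 1 (Tap1) and the mean over probe sets left 1 (Psmb10). For members falling on STO, 0 as reported, linear days gave 3, and leaving out 1 STO day gave 0 to 3. Of 156 single-gene folds under alternatives 2 had the other sign, both of Tap2 in tubular over interstitial cells, at 0.09 and 0.13 in place of -0.01. Folds of Psmb9, Tap1 and Tap2 that touch the floor move with it, so that Psmb9 on MSC1 over STO had a log2 fold of 3.57 with a floor of 25 and 2.13 with a floor of 100. No paired analysis was possible because each population has 1 array per type. Signals near the floor limit what can be said of Tap1 and Tap2 in germ cells.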

Other observations

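The class II pathway, which presents peptides taken up from outside the cell, was mostly dim in these libraries, where at most 3 of 10 genes read at least 250 in a library. Cd74, the invariant chain of class II molecules, read 38.7 to 121 over the 9 libraries. Of the 10 class II genes measured, the protease gene Ctss was the only one called between the somatic fractions, 7.52-fold lower in tubular than in interstitial cells, where it read 765 and Ifi30, a thiol reductase, 705. Ifi30 read 57.3, 175, 187 and 803 on STO days 1, 5, 10 and 20 and 280.4 on MSC1, against the direction of Psmb8. RT1-DMa and RT1-DMb, whose products load class II molecules, read 479 and 302 on MSC1, the highest of the 9 libraries for both.

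Separate profiles of the members, split after their values were seen, were most like different genes over the 9 libraries. The mean of Psmb8, Psmb9 and Psmb10 was closest to Map4k4 (r = 0.976), Fbxw17 (0.967) and Igfbp3 (0.966), while that of Tap1, Tap2 and B2m was closest to Smarca1 (0.994), Zbtb7a (0.992) and Ldhb (0.991). Centred on its own mean over the libraries, the log2 profile of Psmb8, Psmb9 and Psmb10 stood at 1.04 for the binding fraction, -1.42 for the non-binding fraction, -2.92 on STO day 20 and 0.71 on MSC1. That of Tap1, Tap2 and B2m was -0.05, -0.61, -0.76 and -0.48 in the same libraries. There the brighter Tap1 probe set read 35.8, 43.1, 18.2 and 75.8, and Tap2 read 57.6, 19.3, 20.2 and 19.3. Most of these signals were raised to the floor, so this profile cannot show whether Tap1 or Tap2 stayed level.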
